A study of Drosophila melanogaster with 7 samples.

Results

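The genes of the cytosolic ribosomal proteins were followed in Esg-GFP+ cells, the intestinal progenitors of the adult Drosophila midgut, in wild type and Sox21a-/- flies. A gene was taken as a member when its FlyBase symbol began with RpL (large subunit) or RpS (small subunit) followed by a digit, or by P and a digit. This gave 64 of the 7608 genes of the expression table, 39 of the large and 25 of the small subunit. A further 28 symbols of the same form, among them RpL3, RpL5, RpL11, RpS6 and RpS27A, were not analysed here. The members lie on every major chromosome arm, with 12 on 2L, 14 on 2R, 10 on 3L, 17 on 3R, 10 on X and 1, RpS3A, on 4.

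Cytosolic ribosomes translate nearly all proteins of a cell, and each subunit is built in the nucleolus from ribosomal RNA and a set of ribosomal proteins. The proteins are needed in near-equal numbers, so their mRNAs are among the most abundant of any growing cell. Flies that carry only 1 working copy of many of these genes are the Minute mutants, which grow slowly and whose cells are outcompeted by wild type neighbours. Ribosomal RNA synthesis and ribosome assembly are also needed for stem cells to grow and divide.

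All flies carried a GFP fusion of Esg, a transcription factor of intestinal stem cells (ISCs) and enteroblasts (EBs). The 4 wild type libraries came from the Esg-GFP line and the 3 mutant libraries from flies labelled Esg-GFP; Sox21a-/-, mutants of the transcription factor Sox21a. Midguts were taken from adults of day 10, many guts were pooled for a library, and GFP+ cells were sorted by FACS. The study made deletion alleles of Sox21a with CRISPR/Cas9, and which of them was sequenced is not stated. Values are FPKM, fragments per kilobase of exon and per unit of mapped fragments, so levels can be compared between genes per length.

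The depth recovered from the smallest steps between values set 3 libraries at about 10186358 to 10283909 reads (the first 2 wild type replicates and the second mutant replicate) and 4 at about 8235833 to 8898278 reads. Sox21a itself gave 0, 0, 230.4 and 233 FPKM across the wild type replicates, against 96.3, 50.6 and 0 FPKM in Sox21a-/-. The study describes both of its alleles as lacking nearly all of the coding sequence, so the above-zero values of the libraries labelled Sox21a-/- replicates 1 and 2 go against their label, as do the zeros of wild type replicates 1 and 2 unless they are failed estimates. FPKM covers the whole exon model, so RNA from outside the deleted stretch was not separated. Sox21a-/- stands below for the libraries so labelled, and every direction between the groups rests on the labels. The defining progenitor genes esg and Dl were not analysed here. The EB gene klu, 1 of 3 progenitor markers analysed, was above 0 in every library, at 29.7 to 49.0 FPKM in wild type and 9.14 to 16.6 FPKM in Sox21a-/-. RNA of other cell types was also present. Summed over 3 enteroendocrine markers, mostly NPF, the level was 3993 to 9268 FPKM in wild type and 2.53 to 8621 FPKM in Sox21a-/-. Summed over 6 enterocyte markers it was 359.8 to 1983 and 45.0 to 3259 FPKM, and over 3 hemocyte markers 2.34 to 133 and 143 to 171 FPKM. Of the visceral muscle markers, Mlc2 was analysed and stayed at 0.98 to 5.33 FPKM in all libraries. The low ends of these sums hold listed zeros, of NPF in Sox21a-/- replicate 3, Jon65Aiv in Sox21a-/- replicate 1 and crq in wild type replicate 1, which can be failed estimates. The part of other cell types in the levels given below was not tested, and in such pooled samples fewer cells of a type and less RNA per cell cannot be told apart.

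Of the 64 ribosomal protein genes, 43 could be tested between wild type and Sox21a-/- progenitors. With the values as deposited, none of these passed the test, where 12.1% of all 5022 genes tested did. The median standard error on the log2 scale was 0.33 for the members and 0.23 for all genes. Many changes of a member well under 2-fold could thus go undetected. The family moved as a block between libraries, also between those of the same genotype, by up to 1.90-fold in the median, and other abundant genes moved in a like way. The members nearest to a difference were RpL24-like and RpLP0-like, whose yeast counterparts act in ribosome assembly, and they passed the test under 3 and 2 of the alternatives. Both passed with libraries scaled to genes outside the family, where 522 of 5026 genes were called lower. Both also passed under quantile normalization, as did RpLP0, where 354 of 5022 genes were called lower. With depth level as a covariate RpL24-like passed, where 306 of 5022 genes were called lower. Genes of ribosome biogenesis and RNA polymerase I came from a list chosen with earlier results of these data known. Of 21 of them tested, 19 were lower in Sox21a-/-, where 5.28% of all genes were. With zeros kept as values, 3 of 23 passed, where 69 of 6565 genes were called lower. With libraries scaled to the ribosomal protein genes, 1 of 21 passed, where 21 of 5058 genes were called lower.

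Ribosomal protein mRNAs were at the top of the expression range of these cells. In 60 of the 64 members, the median of the values above 0 was at least 1000 FPKM, a level reached by 109 genes of the whole table. Of the 20 genes with the highest mean among those above 0 in all libraries, 18 were members. The values were backed by many reads: the fewest behind any above-zero value of these 60 genes were about 11426, so that counting error was small beside the differences between libraries. The 4 members below 1000 FPKM were RpL24-like, RpL34a, RpLP0-like and RpS5b, and each is the relative of a ribosomal protein gene with another symbol.

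The highest levels belonged to the genes of very small proteins of the large subunit. RpL41, whose protein is a short basic peptide, was listed in wild type at 22714, 0, 18524 and 0 FPKM (replicates 1 to 4) and in Sox21a-/- at 21227, 18706 and 15986 FPKM (replicates 1 to 3). Apart from its zeros it thus lay in one narrow range in both genotypes. RpL39, a small protein at the exit tunnel of the ribosome, was at 14181, 8537, 12479 and 13628 FPKM across the wild type replicates, against 15292, 11501 and 10934 FPKM in Sox21a-/-. The groups overlapped, and the lowest value was that of wild type replicate 2. These 2 genes also have the shortest exon models of the family, 320 bases for RpL41 and 288 bases for RpL39, so that any error in the effective length weighs most on their FPKM.

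Below them, the levels of most members were alike. Among the other 9 of the 10 highest members without zeros, RpLP2 of the stalk had the highest mean over all 7 libraries, with 5720.0 ± 1611 FPKM in wild type (SD, n = 4) and 4886 ± 1361 FPKM in Sox21a-/- (SD, n = 3). The lowest by that mean was RpL18, a protein of the large subunit, at 4043 ± 1167 FPKM (SD, n = 4) and 3731 ± 1243 FPKM (SD, n = 3). Between these by the same mean lay, among others, RpS24, RpS30, RpL23, RpL26, RpS28b and RpS3, all core proteins of their subunits, and the neighbours in this order did not differ beyond their spread.

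**Figure D1:**
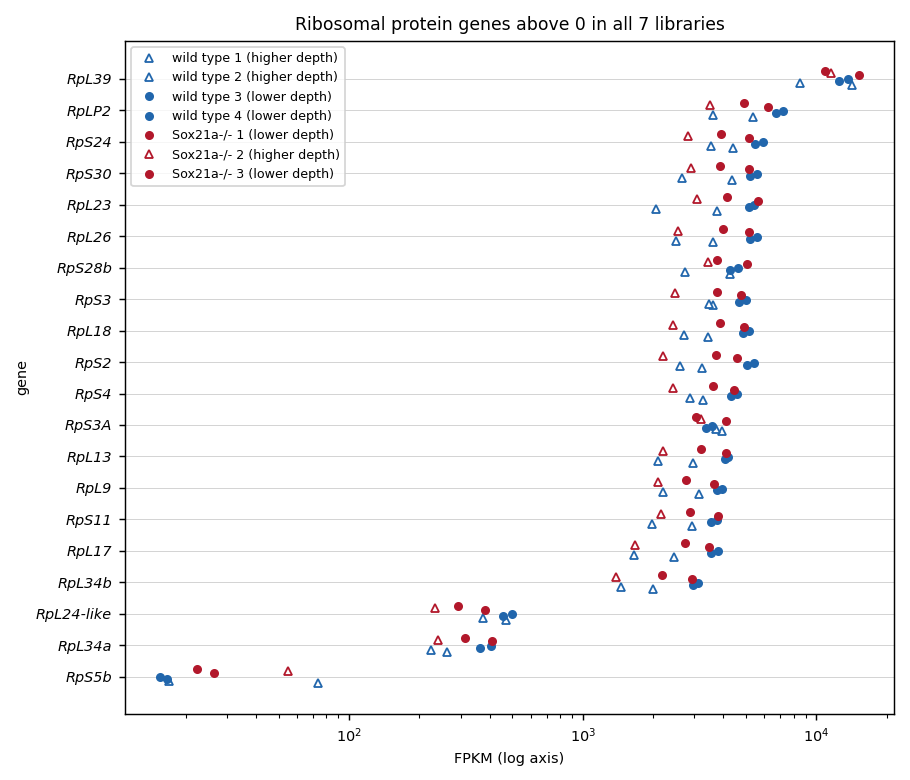
FPKM of 20 of the 21 ribosomal protein genes above 0 in all libraries, on a log axis, with 1 point for each library, wild type and Sox21a-/- in different colours and open triangles for the higher-depth libraries. The groups overlap in all 20 genes shown, and RpS5b lies far below the rest, at 15.5 to 73.5 FPKM.

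The table lists many of these abundant genes at exactly 0. Of 448 values of the members, 128 (28.6%) were 0, and 43 members (67.2%) had a 0 in at least 1 library. Other genes with an above-zero median of at least 1000 FPKM had 33.2% of their values at 0, and all genes of the table had 25.7% at 0, so that the share of the members lay between these. The number of members at 0 was 20, 20, 17 and 20 in wild type replicates 1 to 4, and 21, 19 and 11 in Sox21a-/- replicates 1 to 3. Members at 0 in 1 or 2 libraries numbered 10 and 12, while 7, 3 and 6 were at 0 in 4, 5 and 6 libraries.

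Zeros also fell on members that were high in other libraries. RpS29, a zinc-binding protein of the small subunit, was listed at 0 in 6 libraries and at 5268 FPKM in Sox21a-/- replicate 1. RpL38 and RpS23, core proteins of the large and the small subunit, had values above 0 only in Sox21a-/- replicate 3, at 3309 and 3179 FPKM. Cells that make ribosomes need these proteins, so a 0 can be a failed estimate, and such genes are described by what each library lists.

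Others were listed above 0 in wild type libraries only. RpL12, of the base of the stalk, reached 4984 FPKM in the third wild type library and was 0 elsewhere, although RpL39, which overlaps it by 8 bases on the opposite strand, was at 0 nowhere. RpL7A gave 4378, 0, 5499.7 and 0 FPKM over wild type replicates 1 to 4. RpS20 gave 0, 2418, 4238 and 4504 FPKM. All are core proteins of their subunits. With all 3 Sox21a-/- values listed at 0, no fold is given for these genes.

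RpS14a and RpS14b are neighbours on chromosome X, 220 bases apart, and encode the same protein. In wild type replicate 4 they were at 3426 and 2370.4 FPKM, and both were at 0 in the other 6 libraries. Reads of such near-identical copies can be split between them by the counting, so the level of each is uncertain. By gene structure, 20.9% of the values were 0 in members with 1 annotated transcript and 30.5% in members with 2 or more, without a steady trend. The share was 39.1% with 2, 18.5% with 3, 28.6% with 4 and 33.3% with 5 transcripts. Members that hold snoRNA genes within their bounds had 34.8% of values at 0 and the other members 26.5%, and the part of either feature in the zeros was not tested.

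**Figure D2:**
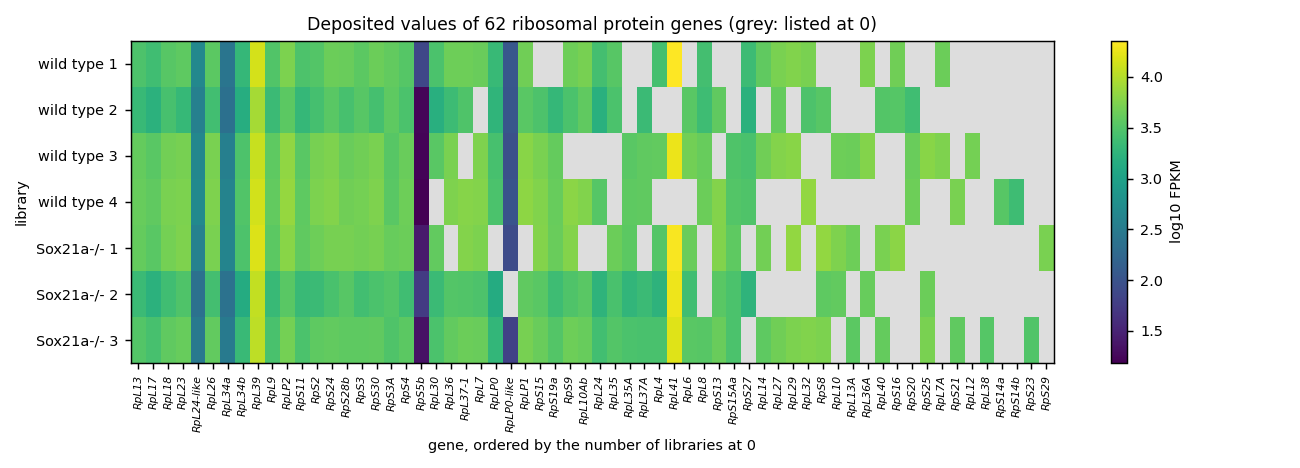
Library (rows) by gene (columns, ordered by the number of libraries at 0) for 62 of the 64 ribosomal protein genes, with a value of 0 in grey and values above 0 coloured by log10 FPKM. Grey cells occur in every library and in genes that are high in other libraries, and the fewest are those of Sox21a-/- replicate 3.

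Across libraries, the members without zeros shifted together. For each of these 21 genes, the level in a library was set against the gene's own mean over the libraries on the log2 FPKM scale. The median of these deviations was -0.06, -0.51, 0.32 and 0.41 in wild type replicates 1 to 4 and 0.33, -0.52 and -0.04 in Sox21a-/- replicates 1 to 3. Either genotype thus held a library well below and a library well above the mean. Over the other 2439 genes that had no zeros and averaged 1 FPKM or more, the same medians lay between -0.06 and 0.13. The most abundant of these went with the family: over the 13 of at least 1000 FPKM, the medians were -0.19, -0.29, 0.25 and 0.29 in wild type and 0.43, -0.37 and 0.06 in Sox21a-/-. Over the 180 of at least 100 FPKM they lay between -0.19 and 0.36. Mitochondrial ribosomal protein genes, which serve the separate ribosomes of mitochondria, followed with a smaller amplitude, from -0.30 in wild type replicate 2 to 0.24 in Sox21a-/- replicate 1 over 39 genes.

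The shift held for nearly every member. Among the 18 members without zeros and above 1000 FPKM, wild type replicate 4 was 1.90-fold higher than replicate 2 in the median, with a range of 0.96 to 2.61-fold and 17 of 18 genes higher. Sox21a-/- replicate 1 was 1.82-fold higher than replicate 2, with a range of 1.28 to 2.11-fold and 18 of 18 genes higher. Replicates 3 and 4 of wild type differed by only 1.06-fold, with a range of 1.03 to 1.09-fold. The 3 libraries of higher depth held the 3 lowest member medians. The third of these was close to a tie, with wild type replicate 1 at -0.06 and lower-depth Sox21a-/- replicate 3 at -0.04. The part of depth in the level of the family was not tested.

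Most members tracked the family closely. RpL13, a protein of the large subunit, was at 2980.4, 2104, 4068 and 4189.7 FPKM across the wild type replicates, against 4089.6, 2209.8 and 3205 FPKM in Sox21a-/-. After the family's median was taken out, its deviation over the libraries had an SD of 0.05 on the log2 scale. Outside the rule for named genes, RpS3A was singled out after its values were seen. This small subunit protein, the only member on chromosome 4, was at 3928, 3732, 3387 and 3566 FPKM across the wild type replicates, against 4115, 3207 and 3059.5 FPKM in Sox21a-/-. Its highest value was only 1.35-fold its lowest, and its correlation with the median of the members was 0.25 over 7 libraries that share their depth and scaling, against 0.99 for RpL13.

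RpS5b went its own way. It encodes a small subunit protein and is best known from the ovary. It was at 73.5, 17.0, 16.6 and 15.5 FPKM across the wild type replicates, against 26.4, 55.0 and 22.3 FPKM in Sox21a-/-. The high values were those of wild type replicate 1 and Sox21a-/- replicate 2, and the groups overlapped. Its range was 4.75-fold, and its deviation from the family had an SD of 1.11 on the log2 scale.

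**Figure D3:**
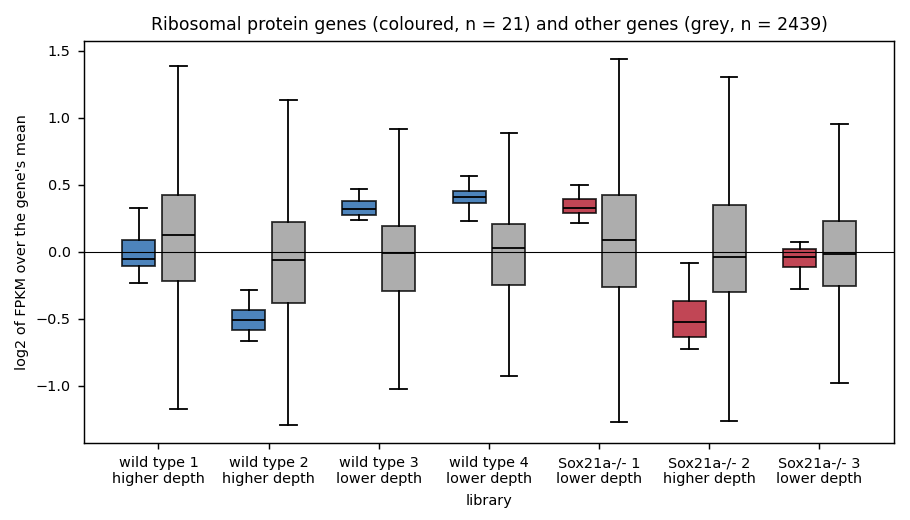
Log2 FPKM of each gene minus the gene's mean log2 FPKM over all libraries, by library, for 21 cytosolic ribosomal protein genes (blue, wild type and red, Sox21a-/-) and for 2439 other genes (grey) (box, quartiles; line, median; whiskers, 1.5 times the interquartile range; outlying points not drawn). The ribosomal protein genes are lowest in wild type replicate 2 and Sox21a-/- replicate 2 and highest in wild type replicate 4.

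To compare the genotypes, limma was fitted on log2(FPKM + 1) with values of 0 treated as missing, for the 5022 genes with at least 2 values above 0 in each group and a mean of at least 1 FPKM. Of the 64 members, 43 could be tested and 21 had too few values above 0. By limma with Benjamini-Hochberg adjustment, 0 of the 43 passed an adjusted p of 0.05, where 12.1% of all genes tested did (6.87% higher and 5.28% lower in Sox21a-/-). At an unadjusted P of 0.05, limma counted 2 of 43 members, against 29.3% of all genes. At P of at most 0.05 with a fold of at least 2, it counted 0 of 43 members against 11.0%. In the exact two-sided permutation test of the 21 members without zeros, 0 reached 0.05, and the smallest p was 0.0571, where 4 against 3 libraries can reach 0.0286. The groups overlapped in all of these 21 members, while 34.0% of the 2460 genes without zeros did not overlap.

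The differences of the members were small, and their intervals wide. The median log2 difference (Sox21a-/- minus wild type) was -0.12 over the 43 members and -0.04 over all genes tested, and 34 of 43 lay below 0, against 53.5% of all genes. The 28 large subunit members had a median of -0.17 and a range of -0.60 to 0.24. The 15 small subunit members had a median of -0.09 and a range of -0.30 to 0.40. The 95% confidence interval of a member reached 0.78 to either side in the median, or 1.72-fold, and 30 of 43 intervals lay within a 2-fold change in either direction. In simulated data, 4% of genes changed by 1.5-fold and 40% of those changed by 2-fold were recovered. These were drawn independently for each gene from all genes tested, without the shared shift of the members. The median SE was 0.33 for the members and 0.23 for all genes, so the rates may be too high for members. The simulated data gave 113 calls and the real data 610. The Benjamini-Hochberg adjustment is stricter with fewer calls, so the rates may also be too low. Which bias is larger was not tested. By the width of the intervals, many changes of a member well under 2-fold could go undetected, and the rate for 2-fold in members was not simulated. Without Sox21a-/- replicate 2, the median of the members was 0.08, with 10 of 37 below 0, and without wild type replicate 2 it was -0.33, while it was -0.29 without Sox21a-/- replicate 1, -0.03 without wild type replicate 3 and -0.00 without wild type replicate 4. Its size thus depended on each of these 5 libraries, and its sign on the first.

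Among the members without zeros, the 5 largest differences toward lower levels were those of RpL24-like, RpS24, RpS3, RpS2 and RpLP2. RpL24-like is the fly counterpart of yeast Rlp24, a factor that holds the place of RpL24 in the maturing large subunit. It was at 471, 375, 456 and 498 FPKM across the wild type replicates, against 381, 233 and 293 FPKM in Sox21a-/-. The groups overlapped by a narrow margin, in that Sox21a-/- replicate 1 lay just above wild type replicate 2. Their means were 450.1 ± 52.8 FPKM (SD, n = 4) and 302.0 ± 74.7 FPKM (SD, n = 3). The log2 difference was -0.60 with an SE of 0.22 (limma, P 0.0250, Benjamini-Hochberg adjusted p = 0.113, exact permutation p = 0.0571). The gene lies on chromosome 3R at 11430740 to 11431582 in the BDGP6 annotation and shares exon sequence with another gene. The difference passed the test when all libraries were scaled to the same sum over genes outside the family (-0.83, limma with Benjamini-Hochberg adjustment, adjusted p = 0.0171), under quantile normalization (-1.06, adjusted p = 0.0181) and with depth level as a covariate (-0.65, adjusted p = 0.0440).

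RpS24, RpS3 and RpS2, core proteins of the small subunit, gave log2 differences of -0.30, -0.22 and -0.22, with limma adjusted p between 0.533 and 0.721. RpS24 was at 4391, 3551, 5484 and 5887 FPKM across the wild type replicates, against 5144, 2827 and 3914 FPKM in Sox21a-/-. Its lowest value was that of Sox21a-/- replicate 2, and the groups overlapped. The 5 largest differences toward higher levels were those of RpS5b (0.40), RpL23 (0.12), RpL39 (0.05), RpS28b (0.04) and RpL34a (0.04), none past the test. For RpS5b the interval ran from -0.93 to 1.72 on the log2 scale. With the 4 libraries of lower depth alone, a comparison of 2 against 2 libraries added after seeing the data, RpS5b passed the test at 0.57 (limma with Benjamini-Hochberg adjustment, adjusted p = 0.0456), where 20.0% of 3327 genes did. That comparison leaves out both libraries in which RpS5b was high.

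The stalk is the flexible arm of the large subunit that recruits translation factors, built from RpLP0 and the acidic proteins RpLP1 and RpLP2. RpLP0, its base, was at 2135, 1852, 2761 and 2859.8 FPKM across the wild type replicates, against 0, 1368 and 1919 FPKM in Sox21a-/-. Sox21a-/- replicate 3 lay within the wild type range and replicate 2 below it. RpLP1 was at 4678, 3479, 6181 and 6573 FPKM across the wild type replicates, against 0, 3848 and 5053 FPKM in Sox21a-/-, with both above-zero mutant values inside the wild type range. RpLP2 was at 5352, 3608, 6721 and 7199.9 FPKM across the wild type replicates, against 6236, 3514 and 4909 FPKM in Sox21a-/-. The log2 differences were -0.54, -0.20 and -0.22 for RpLP0, RpLP1 and RpLP2, with limma adjusted p of 0.269, 0.733 and 0.694. For RpLP0, quantile normalization gave -0.86 (limma with Benjamini-Hochberg adjustment, adjusted p = 0.0161), with Sox21a-/- replicate 1 missing from both fits.

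RpLP0-like is the counterpart of yeast Mrt4, which occupies the site of RpLP0 during assembly of the large subunit. It was at 111, 109.7, 93.6 and 102 FPKM across the wild type replicates, against 81.1, 0 and 64.1 FPKM in Sox21a-/-. Both above-zero mutant values lay below every wild type value. The log2 difference was -0.52 with an SE of 0.19, resting on these 2 mutant libraries (limma, P 0.0256, Benjamini-Hochberg adjusted p = 0.114). It passed the test when libraries were scaled to genes outside the family (-0.77, limma with Benjamini-Hochberg adjustment, adjusted p = 0.0336) and under quantile normalization (-0.78, adjusted p = 0.0395).

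As a percentage of the FPKM of its ribosomal relative in the same library, a ratio that scaling does not touch, RpL24-like stood at 18.6, 23.5 and 14.9% of RpL24 in wild type replicates 1, 2 and 4 and at 13.1 and 11.8% in Sox21a-/- replicates 2 and 3. The mutant ratios lay below all 3 wild type ratios. They hold the same RpL24-like values as the difference given above, so they add no support of their own. No share over all genes was computed for such ratios. RpLP0-like stood at 5.22, 5.92, 3.39 and 3.58% of RpLP0 in wild type and at 3.34% in the only mutant library with both values above 0. RpL34a and RpL34b, copies of a large subunit gene, stood in a narrow range of ratios, and RpL34a was 13.1, 15.4, 12.3 and 13.0% of RpL34b in wild type and 14.0, 17.2 and 14.4% in Sox21a-/-. The highest ratio of either genotype was that of replicate 2, and the groups overlapped.

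Of other genes with a relative elsewhere in the genome, RpL10Ab, RpL24, RpL37-1, RpS15Aa, RpS19a and RpS28b were tested and gave log2 differences between -0.34 and 0.04, none past the test. RpL37A, a different protein than RpL37-1 despite the name, gave -0.35 (limma adjusted p = 0.550). RpS15Aa, of the small subunit, was at 0, 0, 3026 and 3201 FPKM across the wild type replicates, against 3715, 2849 and 2848 FPKM in Sox21a-/-, with a difference of 0.00 and an interval from -0.67 to 0.67. RpL40 is made as a fusion with ubiquitin, which is cleaved off. It was at 0, 3193, 0 and 0 FPKM across the wild type replicates, against 5215, 0 and 4023 FPKM in Sox21a-/-, with too few values above 0 for a test. Which of its values were 0 did not separate the genotypes.

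The share of the summed FPKM taken by the family was computed over genes above 0 in all libraries, 21 members among 2684 genes. The 43 members with a 0 are left out of it. It was 46.3, 39.5, 48.9 and 49.6% of the summed FPKM in wild type replicates 1 to 4, and 44.5, 34.7 and 42.1% in Sox21a-/- replicates 1 to 3. The highest values were wild type and the lowest was mutant, but the groups overlapped. The means were 46.1 ± 4.63% (SD, n = 4) and 40.4 ± 5.13% (SD, n = 3), a difference of -5.68 percentage points against a pooled SD of 4.83. Over all 64 members and all genes, zeros included, the shares were 43.9, 36.1, 46.2 and 42.3% in wild type replicates 1 to 4. In Sox21a-/- replicates 1 to 3 they were 40.6, 37.0 and 42.4%, so that the lowest was wild type. The difference computed this way was -2.10 percentage points, less than the spread between libraries. Without Sox21a-/- replicate 2 the difference was -2.81 points over the genes above 0 in all libraries.

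Genes that act around the ribosome were taken from a written list. It was chosen with earlier results of these data known, so its counts are not an independent test. Of 27 genes of ribosome biogenesis and RNA polymerase I, which transcribes ribosomal RNA, 23 were analysed and 21 were tested. By limma with Benjamini-Hochberg adjustment, 19 fell in Sox21a-/-, none rose, and all 21 differences lay below 0, with a median of -1.03, where 5.28% of all genes were lower and the median was -0.04. The genes with the largest falls were Polr1H, Polr1B and Polr1A, subunits of RNA polymerase I, kz, an RNA helicase of small subunit assembly, mbm, a nucleolar protein, and CG5033, the counterpart of Bop1 of large subunit assembly. Polr1H was at 9.46, 12.6, 15.4 and 14.3 FPKM across the wild type replicates, against 3.62, 3.21 and 0 FPKM in Sox21a-/-, a log2 difference of -1.64 (SE 0.21, adjusted p = 0.0031).

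The other falls had the same form, in that no above-zero mutant value reached the wild type range. Of the 2460 genes without zeros, 17.9% likewise did not overlap and were lower in Sox21a-/-. The falls were picked by their p, so this form adds no support of its own. Polr1H and mbm were listed at 0 in Sox21a-/- replicate 3, and Polr1A in replicate 1. Polr1B was at 12.4, 19.2, 14.5 and 14.9 FPKM across the wild type replicates, against 5.25, 4.39 and 5.83 FPKM in Sox21a-/- (-1.39, limma adjusted p = 0.0020). CG5033 was at 43.4, 50.6, 38.7 and 45.1 FPKM across the wild type replicates, against 20.8, 15.3 and 21.0 FPKM in Sox21a-/- (-1.19, limma adjusted p = 0.0027). The log2 differences of kz, mbm and Polr1A were -1.46, -1.36 and -1.12, with limma adjusted p of 0.0018, 0.0025 and 0.0216. The 2 genes tested that did not pass were eIF6, which keeps the subunits apart (-0.24, limma adjusted p = 0.494), and Tif-IA, the initiation factor of RNA polymerase I (-0.54, limma adjusted p = 0.207).

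Between the same libraries, klu fell (-1.66, limma adjusted p = 0.0028), and 2 of 3 enterocyte markers tested rose, lambdaTry (2.26, limma adjusted p = 0.0025) and Jon65Aiv (2.60, limma adjusted p = 0.0330). Other markers of these lists, with too few values above 0 for a test, went the other way. The progenitor markers mira (22.9 and 28.9 FPKM) and Sox100B (378 FPKM) were above 0 only in Sox21a-/- libraries. The enterocyte markers Myo31DF and Amy-p were above 0 only in wild type libraries, at 10.1 to 240.7 FPKM. Their zeros can be failed estimates. The hemocyte markers NimC1 and Col4a1 gave 1.95 and 1.63 (limma adjusted p of 0.0631 and 0.126), with their highest values, 15.0 and 33.1 FPKM, in Sox21a-/- replicate 2. The part of these cell types in the biogenesis result was not tested. The count of biogenesis genes called, more than the size of their differences, depended on the scaling and on the zeros. When libraries were scaled to the members, added after seeing the data, 1 of 21 biogenesis genes passed, with all 21 below 0 and a median of -0.91. In that fit 0 of 43 members passed, and 21 of 5058 genes were called lower. When zeros were kept as values, 3 of 23 biogenesis genes passed, with 21 of 23 below 0 and a median of -1.06, where 69 of 6565 genes were called lower. No test of the difference between the 2 groups of genes was made. Mitochondrial ribosomal protein genes had a median of 0.05 over 58 genes tested, with 0 called by limma with Benjamini-Hochberg adjustment and 1 at an unadjusted P of 0.05.

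Of ribosomal proteins with other symbols, Rack1 and sta were tested and did not pass. Rack1, a scaffold on the small subunit, was at 2495, 2454, 4021 and 4153 FPKM across the wild type replicates, against 3651, 1871 and 3103 FPKM in Sox21a-/-, a log2 difference of -0.20 (limma adjusted p = 0.721). In either genotype its lowest value was that of replicate 2. The gene sta, for the small subunit protein RpSA, gave -0.02 (limma adjusted p = 0.980). Of the regulators, Max, the partner of Myc, M1BP, a promoter-binding factor of ribosomal protein genes, Thor, the translational repressor 4E-BP, and larp, an RNA-binding protein of mRNAs of the translation machinery, were tested and did not pass. Their log2 differences were -0.04, -0.21, 0.50 and -0.78, with limma adjusted p between 0.144 and 0.917, and 1 of the 4, larp, was under an unadjusted P of 0.05.

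**Figure D4:**
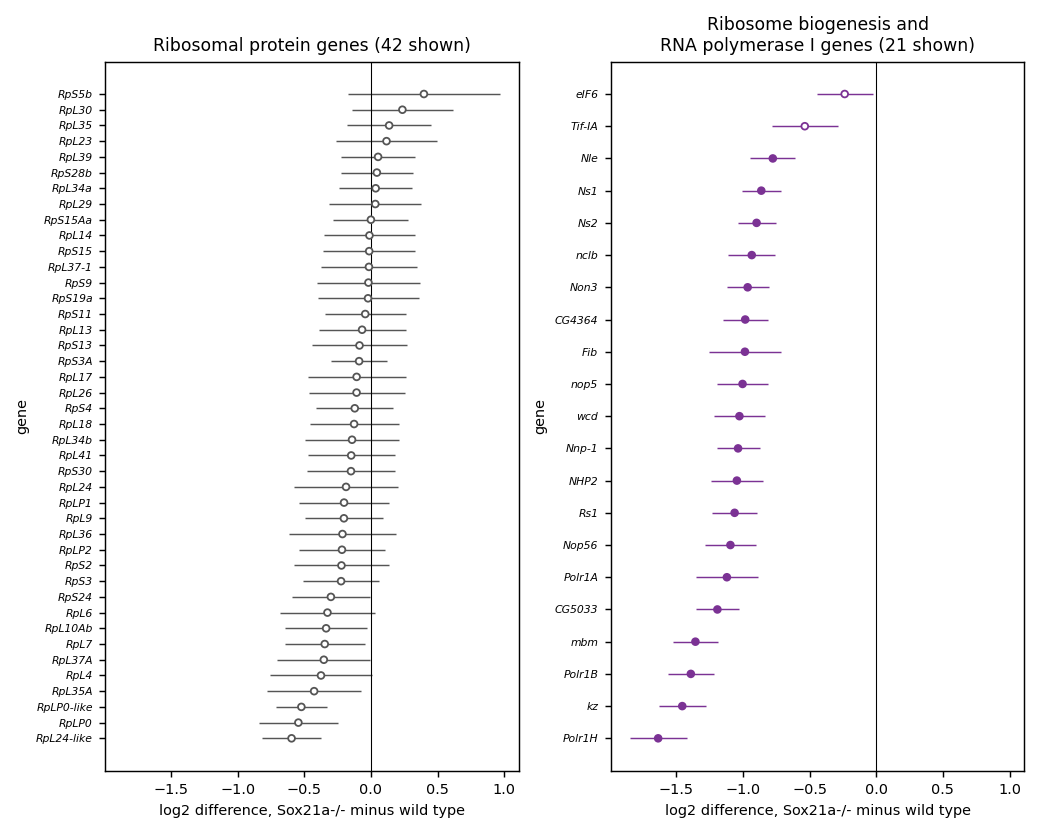
Log2 difference (Sox21a-/- minus wild type) with its standard error for 42 of the 43 ribosomal protein genes tested (left) and the biogenesis genes (right), with filled points for genes that limma called (adjusted p up to 0.05). Ribosomal protein genes lie between -0.60 and 0.40 with none filled, and 19 of the 21 biogenesis and RNA polymerase I genes are filled, all below 0.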

How the data were processed

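RNA-seq of sorted Esg-GFP+ cells gave 7 libraries. Per the labels and methods, the authors mapped single-end reads to BDGP5 with TopHat2 2.0.10 and computed FPKM with Cufflinks 2.2.1. The deposited FPKM values are the only values used, for 7608 gene IDs, and the sources used here give no further scaling between libraries. Names, exon lengths and positions come from the BDGP6 annotation, matched by FlyBase ID for 7339 IDs. The kit does not mark strand, so reads of overlapping genes cannot be told apart. Depth was recovered from the lowest value of FPKM times exon kilobases shared by at least 5 genes, and reads per gene are approximate. The methods give 3 biological replicates while 4 wild type libraries are labelled, and all were kept. Which of the wild type libraries are separate biological replicates is not stated, so part of the spread behind the p-values may be technical. Over genes without zeros, wild type replicates 3 and 4 correlated at 0.99 on the log2 scale. The other wild type pairs correlated at 0.92 to 0.97. If replicates 3 and 4 are not separate, n = 4 overstates the wild type group.

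Differences were tested with limma 3.58.1 in R 4.3.3 (trend and robust, two-sided) on log2(FPKM + 1), zeros missing, for genes with at least 2 values above 0 in each group and a mean above-zero FPKM of at least 1, with Benjamini-Hochberg adjustment over all 5022 genes. On this scale, folds of low genes come out too small. Genes above 0 in all libraries were also tested by exact permutation over all 35 splits. Simulated data were drawn independently for each gene, with 200 changed genes. In them, 4 of 113 calls were unchanged genes, and 4, 40, 78 and 96% of genes changed 1.5, 2, 4 and 8-fold were recovered. Other steps were run in Python 3.11.15 (pandas 2.3.3, numpy 2.4.6, matplotlib 3.10.9, scipy 1.17.1).

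Members and lists were chosen with earlier results of these data known. Named members were the 10 highest and the 5 with the largest rise and fall among those without zeros, those at 0 in all libraries of a group or in all but 1 library, and those of the stalk, ubiquitin fusion and paralog lists. Of these, 2 members are not reported here. Up to 6 called genes of other lists were named. RpL41, RpL13, RpS3A, klu, mira, Sox100B, the enterocyte genes and genes that did not pass were named after their values were seen. Replicate numbers were not taken as pairs in the main fit. The deviations of same-numbered libraries correlated at 0.01, 0.37 and 0.20, and those of differently numbered libraries at -0.28 to 0.27. These values do not settle whether the numbers are pairs, so a replicate block was among the alternatives. Alternatives were other pseudocounts, filters, treatments of zeros and scalings, limma without trend, a replicate block, a depth covariate, wild type replicates 3 and 4 averaged, and each library left out. The lower-depth libraries alone, scaling to the members and the share over all genes were added after seeing the data. Promoter motifs were not analysed here.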

Additional observations from a re-analysis of the deposited data

Results flagged for a closer look

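For 37 quantities of wild type, Dixon's criterion was applied to the 4 replicates, and in 6 a replicate stood apart. In 4 of these the other values are all 0, and in the number of members at 0 the other values tie at 20. Such ties meet the criterion by construction, and chance flags about 1 in 20 groups otherwise. RpL12 reached 4984 FPKM in the third replicate and RpL40 3192.9 FPKM in the second, each with the other values listed at 0. RpS14a and its neighbour RpS14b reached 3426 and 2370.4 FPKM in the fourth replicate, again with the other values listed at 0. RpS5b reached 73.5 FPKM in the first replicate, where the others held 15.5 to 17.0 FPKM. Wild type replicate 3 had 17 ribosomal protein genes listed at 0, where each of the others had 20.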

How the results depend on the processing

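The number of members called lower was 0 of 43 with all libraries and the FPKM as deposited, where 265 of 5022 genes were. Under quantile normalization it became 3 of 43 (RpL24-like, RpLP0 and RpLP0-like), where 354 of all 5022 genes tested were lower. With libraries scaled to genes outside the family it was 2 of 43 (RpL24-like and RpLP0-like), where 522 of 5026 genes were lower. With depth level as a covariate it was 1 of 43 (RpL24-like), where 306 of 5022 genes were lower. The number called higher became 1 of 27 (RpS5b) with the lower-depth libraries only, where 444 of 3327 genes were higher. Both numbers were 0 under every other alternative run. Among the 24 named members tested, none gave opposite signs under an alternative with both differences larger than their standard errors. The median of the members lay between -0.33 and 0.08 when a library was left out, and the difference in share between -7.89 and -2.81 percentage points. With the replicate block, 0 of 38 members were called, their median was -0.01, and 14 of 21 biogenesis genes were called lower. The number of biogenesis genes called lower, 19 as reported, was 13 to 19 with a library left out. It was 16 of 21 with wild type replicates 3 and 4 averaged and 12 of 12 among genes above 0 in all libraries. With zeros kept it was 3 of 23, and 1 of 21 when scaled to the members. Over all genes, 610 calls became 160 with zeros kept, 423 among genes above 0 in all libraries, 408 with the replicate block, 399 with wild type replicates 3 and 4 averaged and 201 when scaled to the members, and 305 to 657 with a library left out. The share of calls that were higher was 56.6% as reported (345 higher, 265 lower), 33.5% (263 and 522) when scaled to genes outside the family, which moved the median of all genes by -0.21, 89.6% (180 and 21) when scaled to the members, which moved it by 0.11, and 66.8% with the lower-depth libraries only. The cause of these changes was not tested. Counting error was small for the abundant members, since each value rested on many reads. Promoter motifs were not run.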
